A study of Mus musculus with 15 samples.

Results

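Pancreatic islets that carried a human islet amyloid polypeptide (IAPP) transgene were compared with islets that carried a rodent IAPP transgene, using 6 of the 15 bulk RNA libraries in the study. The hIAPP group held 3 libraries of mice with human IAPP driven by the insulin II promoter, and the rIAPP group held 3 libraries of mice with rodent IAPP driven by that same promoter. WT islets, with 3 libraries and neither transgene, are given as levels beside both. The title numbers of the WT libraries lie apart from those of both groups, so transgene and colony cannot be told apart against WT. The other 6 libraries came from hIAPP_hCAST mice, with human IAPP and human CAST, and hCAST mice, with human CAST alone, and they entered the fit only to share its estimate of spread. All mice were FVB/NJ and aged 9 to 10 weeks, and members of each group were taken from the library labels. The insulin II promoter directs both transgenes to beta cells. The transgene copy number, the founder line and the zygosity were not stated, and the title numbers of the rIAPP libraries lie apart from those of hIAPP, so the IAPP sequence, its dose, the insertion site and the colony cannot be told apart. The labels also do not say that the 3 libraries of a group came from separate animals, so every p-value measures the spread between libraries, which may be technical.

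IAPP, or amylin, is a small hormone that beta cells store and release together with insulin. The human peptide can assemble into toxic oligomers and amyloid fibrils, whereas rodent IAPP carries prolines in its core that keep it from forming fibrils. Mice with rodent IAPP therefore serve as the usual control for peptide made in excess without aggregation. Islets also hold resident macrophages, which take up secreted granules and debris, and macrophages exposed to fibrillar IAPP are known to release inflammatory cytokines. In damaged or lipid-laden tissue, macrophages can enter a state marked by the lipid receptor Trem2, the lipoprotein Apoe and the lysosomal glycoprotein Gpnmb.

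The libraries differed in depth and composition. The hIAPP libraries held 35510664 to 36763315 counts, and the rIAPP libraries 29438284 to 35780458. Library rIAPP 2 stood apart, because 67.7% of its counts fell on Rn45s, Lars2 and Mir6236, entries that collect ribosomal RNA reads. Only 9510502 of its counts lay elsewhere, against at least 30199765 in each of the other 5 libraries, so results are given with and without it. The other rIAPP libraries had 1.99% and 11.8% of counts on these entries, and the hIAPP libraries 0.351% to 7.63%. WT 2 and WT 3 were also rich in these entries (94.3% and 68.9%), and WT levels are therefore given without a test. Across the remaining genes, Pearson's r of log2 levels was 0.989 to 0.991 within hIAPP, 0.986 to 0.993 within rIAPP and 0.965 to 0.979 between the groups, across genes that are not independent replicates. The 2 insulin genes held 9.90% to 11.8% of the remaining counts in hIAPP and 5.34% to 7.18% in rIAPP, with an exact two-sided permutation p of 0.1, the smallest that 3 libraries against 3 allow. Marker genes of acinar cells, the exocrine cells that surround islets, held 8.14% to 15.9% in hIAPP and 12.6% to 16.8% in rIAPP (exact permutation p = 0.3). The hIAPP mean was the lower for acinar genes, but the order turned to 0.624 percentage points higher when the ribosomal entries were kept in the totals. Of 6 sex-linked genes, 0 passed in edgeR, where 4 had an unadjusted p below 0.05, against 1 call in DESeq2 and 3 in voom.

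Of 24060 entries in the count table, 15595 were tested between hIAPP and rIAPP, and 12.9% of them, 2018 genes, passed at an adjusted p below 0.05. In hIAPP islets 1186 genes (7.61%) were higher and 832 (5.34%) lower. At least 2-fold differences were reached by 411 of the higher and 283 of the lower genes, and at least 4-fold differences by 82 and 84. The median log2 fold change over all tested genes was 0.01. Of the tested genes, 35.5% had hIAPP and rIAPP libraries that did not overlap, 3068 with hIAPP above and 2469 with hIAPP below. Without rIAPP 2, 1286 of 15775 tested genes passed (8.15%), 744 higher (4.72%) and 542 lower (3.44%), and 1274 of the 2018 calls held. Of the 2018 calls, 58.8% were higher, against 78.4% of the 393 calls on log2 of the deposited FPKM plus 1, a scale on which the median of all genes lay 0.40 higher, and directions below are on the count scale. On that FPKM scale 325 of the 2018 calls held. Of 125 genes called and named here, all but Iapp, Bhlha15, Pdia6 and Eif2ak3 passed also without rIAPP 2, and 55 passed in the same direction on log2 FPKM plus 1. Under every alternative tried, FPKM included, 28 of the 125 held. Counts of list members below stand against 7.61% of all genes higher and 5.34% lower, or 4.72% and 3.44% without rIAPP 2. The lists and their members were chosen with earlier results of these data known, so their shares and order are descriptions and not tests. In bulk islets, fewer cells of a type and less RNA per cell cannot be told apart, and this applies to every gene below.

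**Figure D1:**
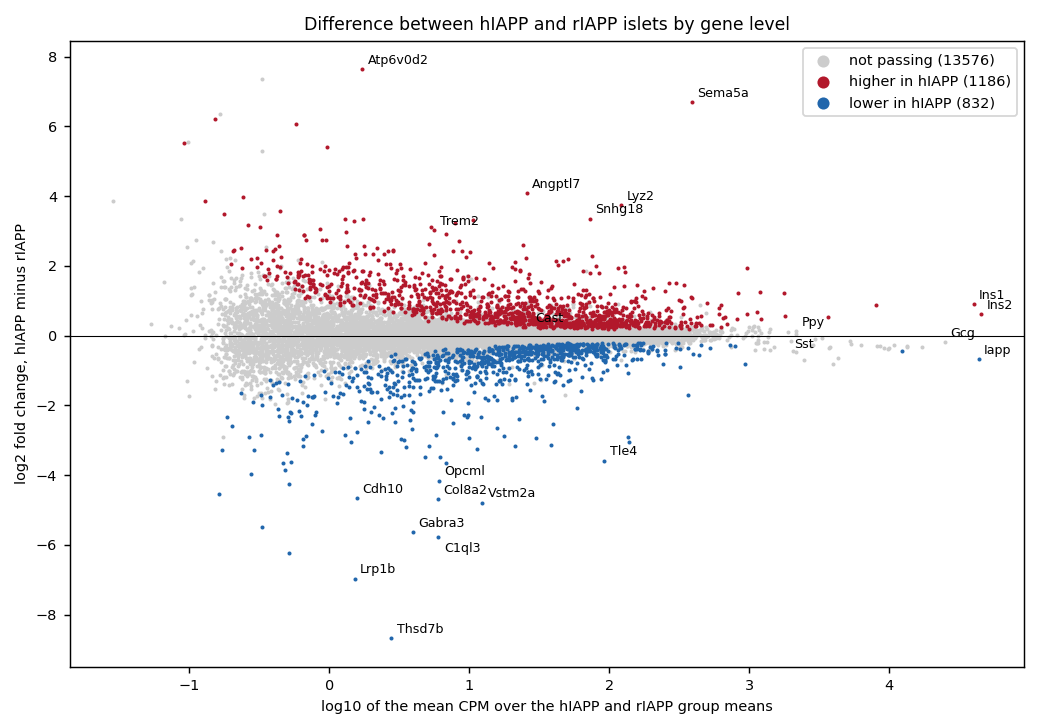
Log2 fold change of hIAPP over rIAPP (y axis) against the log10 of the mean CPM over the 2 group means (x axis) for the tested genes, with the 1186 higher genes in red, the 832 lower genes in blue and the others in grey. Sema5a lies at a log2 fold change of 6.69 with a high mean level, while Thsd7b and Lrp1b lie at -8.68 and -6.97 with low mean levels.

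The mouse Iapp gene, which lies at chr6:142298423-142303961 on the plus strand in the GENCODE annotation of GRCm38, was lower in hIAPP islets. It had 33388, 33922 and 33668 CPM in hIAPP libraries, against 50382, 56392 and 54087 CPM in rIAPP libraries. Every rIAPP library lay above every hIAPP library, and WT libraries had 34526, 62459 and 33854 CPM, with WT 1 and WT 3 close to hIAPP. The log2 fold change was -0.67 ± 0.17 (SE, adjusted p = 0.0136), but the call did not hold without rIAPP 2, at -0.63 with an adjusted p of 0.057, or without hIAPP 1, with an adjusted p of 0.052. Whether reads of the rodent transgene were counted on mouse Iapp was not tested, and human transgene reads were not analysed here, so these values do not give the total IAPP message of either group. Cast, which encodes the calpain inhibitor calpastatin, had 28.3 ± 0.385 CPM in hIAPP and 25.7 ± 1.47 CPM in rIAPP (SD, n = 3 each) and did not pass (log2 fold change 0.13 ± 0.07, adjusted p = 0.261).

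The largest rises joined a gene pair on chromosome 15 with a set of macrophage genes. Sema5a, a semaphorin guidance protein, had 776, 759.8 and 766 CPM in hIAPP libraries, against 7.49, 5.76 and 8.35 CPM in rIAPP libraries and 16.01, 24.6 and 17.3 CPM in WT libraries. Its hIAPP libraries agreed closely with each other and lay far above all others, at a log2 fold change of 6.69 ± 0.15 (adjusted p = 9.05e-15). The long non-coding RNA Snhg18 lies beside it, at chr15:32240565-32244662 on the minus strand against chr15:32244810-32696341 on the plus strand for Sema5a in the GENCODE annotation of GRCm38. Snhg18 had 132, 128 and 138 CPM in hIAPP, against 12.7, 14.9 and 12.1 CPM in rIAPP and 7.97, 10.7 and 6.98 CPM in WT (log2 fold change 3.35 ± 0.11, adjusted p = 2.34e-12). These spans do not overlap, but the annotation and strand setting used in the counting were not stated. Whether reads were shared between these neighbours was not tested.

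Among the other large rises, 7 are genes of phagocytes. Lyz2, the lysozyme of myeloid cells, had 239.6, 253 and 186 CPM in hIAPP, against 16.2, 14.1 and 19.7 CPM in rIAPP and 13.6, 11.96 and 15.6 CPM in WT. No hIAPP library came near any rIAPP or WT library (log2 fold change 3.74 ± 0.28, adjusted p = 3.47e-06). Atp6v0d2, a subunit of the vacuolar proton pump of macrophages and osteoclasts, had 3.35, 4.41 and 2.51 CPM in hIAPP and 0, 0 and 0.0322 CPM in rIAPP, which held 1 count of it in all. Its level was 259.6 times higher in hIAPP, with a 95% exact interval of 46.3 to 10280.4 that covers counting error only. Gpnmb, a lysosomal glycoprotein of lipid-laden macrophages, had 15.2, 26.3 and 16.3 CPM in hIAPP against 2.09, 1.81 and 1.77 CPM in rIAPP. Trem2, the lipid receptor of macrophages, had 9.68, 13.0 and 7.26 CPM in hIAPP against 0.961, 1.17 and 1.55 CPM in rIAPP. Cd84, Fcrls and Siglec1, surface receptors of macrophages and microglia, had log2 fold changes of 3.10 ± 0.26, 3.28 ± 0.50 and 2.98 ± 0.50. In each of these 7 genes the WT libraries lay below every hIAPP library.

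The remaining large rises had other patterns in WT. Angptl7, a secreted angiopoietin-like protein, had 67.5, 45.6 and 34.1 CPM in hIAPP, against 2.94, 0.746 and 3.87 CPM in rIAPP and 49.1, 34.0 and 35.4 CPM in WT, so its low group was rIAPP. Kcnj12, an inward rectifier potassium channel, had 17.0, 9.41 and 16.7 CPM in hIAPP, 1.59, 1.60 and 1.42 CPM in rIAPP and 27.0, 18.3 and 32.7 CPM in WT. Slc14a2, a urea transporter, and Mcoln3, a lysosomal cation channel, were likewise lower in every rIAPP library than in every hIAPP and WT library. The log2 fold changes of hIAPP over rIAPP were 4.08, 3.24, 2.92 and 3.35 for these 4 genes in the order named. Areg, a ligand of the epidermal growth factor receptor, had 2.97, 3.54 and 3.10 CPM in hIAPP and 0.467, 0.107 and 0.226 CPM in rIAPP, and Map3k19, a kinase, had 13.0, 17.3 and 13.4 CPM in hIAPP and 2.17, 2.67 and 2.00 CPM in rIAPP.

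The largest falls were genes that were low in hIAPP and WT and expressed in rIAPP. Thsd7b, a thrombospondin type 1 domain protein, had 0, 0 and 0.0267 CPM in hIAPP, against 5.85, 5.54 and 5.22 CPM in rIAPP. The hIAPP libraries held 1 count in all against 427 in rIAPP, a ratio of 591 for rIAPP over hIAPP with a 95% exact interval of 105 to 23381 (counting error only). Lrp1b, a large lipoprotein receptor, had 2 counts in hIAPP against 195 in rIAPP, a ratio of 135 (36.8 to 1121). C1ql3, a secreted synaptic protein, had 0.109, 0.342 and 0.187 CPM in hIAPP, against 10.95, 15.4 and 9.18 CPM in rIAPP and 0.125, 0 and 0.222 CPM in WT. Gabra3, a GABA receptor subunit, had 0.245, 0.0932 and 0.107 CPM in hIAPP, against 7.82, 9.38 and 5.96 CPM in rIAPP. The co-repressor Tle4 was the most abundant of the 15 falls, with 15.3, 14.4 and 12.7 CPM in hIAPP, against 171, 187 and 151 CPM in rIAPP and 13.1, 17.0 and 11.97 CPM in WT. Its hIAPP and WT levels overlapped, and rIAPP stood apart (log2 fold change -3.58 ± 0.10, adjusted p = 3.32e-13). The other 10 falls were Vstm2a, Col8a2, Cdh10, Opcml, Chst8, Cpb2, Cidea, Cngb1, Clmp and Prkg2, with log2 fold changes from -4.79 for Vstm2a to -3.19 for Prkg2. Opcml and Cdh10 are neuronal adhesion molecules, Col8a2 is a basement membrane collagen and Cidea is a lipid droplet protein. In all 15 falls every rIAPP library lay above every WT library.

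**Figure D2:**
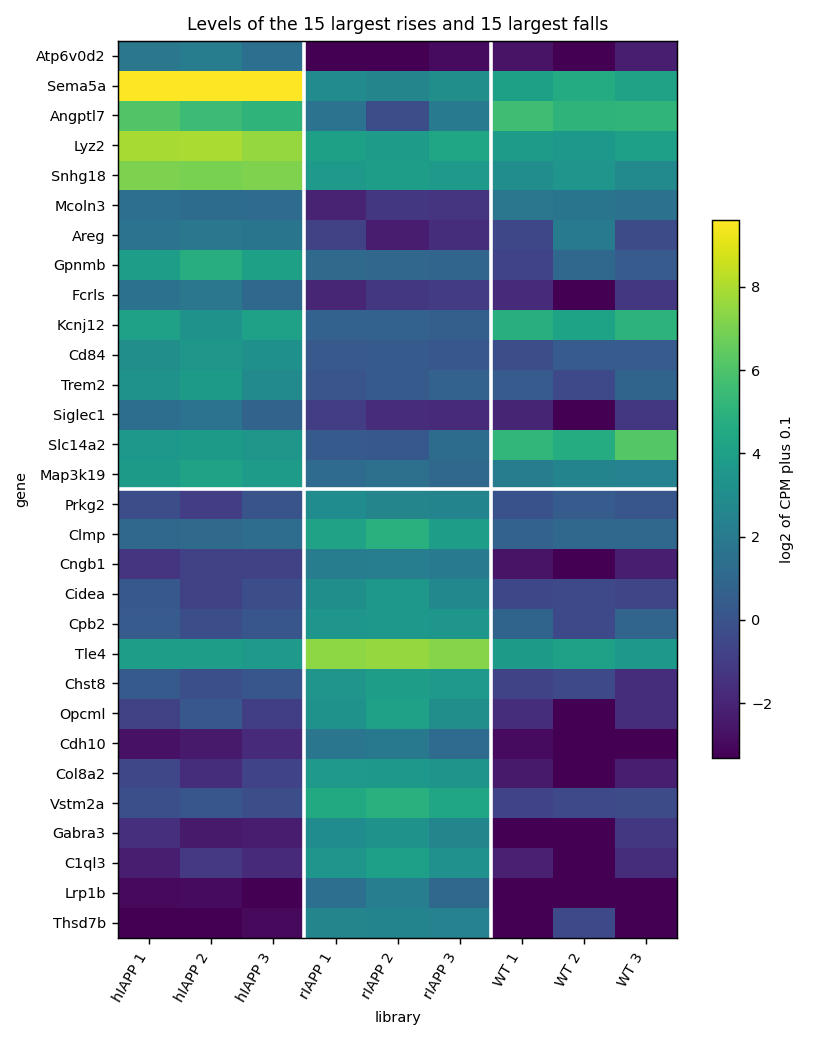
Levels of the 15 largest rises (top) and 15 largest falls (bottom) as log2 of CPM plus 0.1, 1 row per gene and 1 column per library, with hIAPP, rIAPP and WT libraries from left to right. The macrophage genes are high in the 3 hIAPP columns alone, Angptl7, Mcoln3, Kcnj12 and Slc14a2 are lowest in the 3 rIAPP columns, and the falls are high in the 3 rIAPP columns alone.

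Macrophage markers were the list with the largest share of passing members among lists with at least 8 tested genes. Of 26 markers, 24 were tested, and 19 of these (79.2%) were higher in hIAPP, against 7.61% of all genes, with a median log2 fold change of 1.76 against 0.01. Without rIAPP 2, 19 were again higher, against 4.72% of all genes. C1qb, a chain of the complement starter C1q that tissue macrophages secrete, had 34.8, 44.7 and 29.3 CPM in hIAPP, against 9.55, 9.81 and 10.2 CPM in rIAPP. Ctss, the lysosomal protease cathepsin S, had 99.6, 123 and 82.8 CPM in hIAPP, against 28.1, 23.0 and 32.3 CPM in rIAPP. Both genes had every hIAPP library above every rIAPP library, and WT levels (12.3 ± 0.906 and 32.8 ± 2.03 CPM, SD, n = 3) lay closer to rIAPP than to hIAPP. The others of smallest p beside Lyz2 were Ms4a7, a membrane protein of macrophages (log2 fold change 2.26 ± 0.17), Fcgr3 (1.97 ± 0.21), an Fc receptor, and C1qc (1.97 ± 0.21). Emr1, the older symbol of the macrophage marker F4/80, had 10.6, 10.3 and 7.45 CPM in hIAPP, against 2.36, 3.09 and 2.64 CPM in rIAPP (log2 fold change 1.84 ± 0.21, adjusted p = 1.24e-05). The summed level of the list was 706 to 1009 CPM in hIAPP, 196 to 252 CPM in rIAPP and 213 to 282 CPM in WT.

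The promoters of Fcgr3 and Ctss are shown because both are called macrophage markers whose windows hold the core of the PU.1 motif, the binding site of a transcription factor that myeloid cells need. Each window runs from 250 bases before to 50 bases after the RefSeq start, reads 5′ to 3′ on the gene's strand in GRCm38.p6, and has GAGGAAG or its reverse complement CTTCCTC in capitals. Fcgr3 lies at chr1:171059354-171059653 (minus strand) and Ctss at chr3:95526536-95526835 (plus strand).
Fcgr3: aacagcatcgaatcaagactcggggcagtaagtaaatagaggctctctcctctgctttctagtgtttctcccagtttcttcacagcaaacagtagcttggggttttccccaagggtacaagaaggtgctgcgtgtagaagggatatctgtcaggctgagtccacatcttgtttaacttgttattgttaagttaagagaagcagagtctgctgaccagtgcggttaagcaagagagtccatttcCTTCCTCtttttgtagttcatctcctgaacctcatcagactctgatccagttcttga
Ctss: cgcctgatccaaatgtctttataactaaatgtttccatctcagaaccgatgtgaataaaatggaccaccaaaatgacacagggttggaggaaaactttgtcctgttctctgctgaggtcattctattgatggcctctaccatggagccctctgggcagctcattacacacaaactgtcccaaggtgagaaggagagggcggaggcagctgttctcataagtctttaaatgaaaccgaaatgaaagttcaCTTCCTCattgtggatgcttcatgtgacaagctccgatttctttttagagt
GAGGAAG on either strand was in 9 of the 20 windows that 18 macrophage markers had, against 13.6% of all 32851 windows, and the longer GAGGAAGT was in 3 of 20, against 3.20%. Of the 17 windows of members that were higher, GAGGAAG was in 7 and GAGGAAGT in 3. A match is a description of these letters and not of binding.

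The lipid-associated macrophage list moved with the macrophage markers. Of 24 tested members, 15 were higher in hIAPP (13 without rIAPP 2) with all passing members in that direction, at a median log2 fold change of 0.71. Apoe, which carries lipid out of macrophages, had 1512, 1666 and 1401 CPM in hIAPP, against 422, 361 and 412 CPM in rIAPP and 331, 347 and 409.9 CPM in WT. Its hIAPP libraries lay far above all others (log2 fold change 1.94 ± 0.16, adjusted p = 7.26e-07). Axl, a receptor for dying cells, had a log2 fold change of 0.80 ± 0.09. The complement list had 18 tested members, of which 7 were higher and 3 lower (7 and 1 without rIAPP 2, and 1 lower also without any single hIAPP library), and its higher members were the 3 C1q chains and the receptors C3ar1, C5ar1, Itgam and Itgb2, of which C5ar1 did not pass without rIAPP 1 (adjusted p = 0.0541). C3ar1, the receptor for the C3a fragment, had 10.1, 10.999 and 6.94 CPM in hIAPP, against 3.27, 3.20 and 3.61 CPM in rIAPP. Both lists share members with the macrophage list, so their counts are not separate.

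MHC class II genes went the other way. Of 12 tested genes of this presentation pathway, 5 were lower and 2 higher (5 and 1 without rIAPP 2), at a median log2 fold change of -0.83. The count of lower genes was 3 without hIAPP 2, without rIAPP 1 and without rIAPP 3. H2-Ab1, a class II chain, had 31.9, 20.7 and 17.5 CPM in hIAPP, against 55.4, 60.02 and 59.5 CPM in rIAPP and 47.5, 55.4 and 53.9 CPM in WT. Every hIAPP library lay below every rIAPP and WT library (log2 fold change -1.32 ± 0.19, adjusted p = 0.000334). The partner chain H2-Aa and the invariant chain Cd74 had log2 fold changes of -1.32 ± 0.24 and -1.24 ± 0.22, and in both hIAPP lay below rIAPP but overlapped with WT. The protease Ctss, which trims the invariant chain, belongs to the same list and was higher. Chemokine genes were mixed, with 4 of 16 tested members lower and 2 higher (2 and 2 without rIAPP 2, and 2 lower without hIAPP 2 or hIAPP 3). Cx3cl1, the ligand fractalkine, had 31.5, 29.1 and 31.4 CPM in hIAPP, against 73.5, 77.3 and 72.3 CPM in rIAPP and 28.2, 16.4 and 31.2 CPM in WT. Its receptor Cx3cr1, a marker of resident macrophages, had 36.3, 39.7 and 24.4 CPM in hIAPP, against 7.68, 8.21 and 10.7 CPM in rIAPP. Ligand and receptor thus differed in opposite directions, with log2 fold changes of -1.28 ± 0.12 and 1.91 ± 0.22. Ccr2, the receptor of recruited monocytes, had 2.73, 1.18 and 1.07 CPM in hIAPP, against 5.46, 5.97 and 7.25 CPM in rIAPP, with every hIAPP library below every rIAPP library (log2 fold change -1.90 ± 0.39, adjusted p = 0.00346).

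The other immune lists had shares of passing members on both sides of the 12.9% over all genes. Of 28 tested interferon and MHC class I genes, 2 were higher and 1 lower (10.7% called), with and without rIAPP 2. Usp18, which restrains interferon signalling, had 47.8, 39.7 and 37.4 CPM in hIAPP and 12.6, 9.91 and 13.4 CPM in rIAPP, and WT lay at 43.2 ± 3.44 CPM. Ifih1, a sensor of viral RNA, was lower in hIAPP at 13.3 ± 1.01 CPM, against 25.4 ± 2.00 CPM in rIAPP. Of 18 tested interleukin-1 and inflammasome genes, 0 passed in edgeR, where 3 were higher and 2 lower at an unadjusted p below 0.05, against 1 call in DESeq2, 4 in voom and 1 in edgeR without rIAPP 2. Of 20 T cell and NK cell markers 8 were tested, with 2 higher and 1 lower (37.5% called, and 1 and 0 without rIAPP 2), and their summed level was 7.56 to 8.25 CPM in hIAPP and 4.48 to 5.80 CPM in rIAPP. Cd4, a co-receptor of helper T cells, was at 2.49 ± 0.370 CPM in hIAPP, against 0.541 ± 0.209 CPM in rIAPP (log2 fold change 2.34 ± 0.36), while the defining T cell genes Cd3d, Cd3e and Cd3g were too low to be tested, with means of 0.0178, 0.0182 and 0.0480 CPM in hIAPP and 0.00915, 0.0630 and 0.0521 CPM in rIAPP. Of 12 dendritic cell markers 9 were tested, with 1 higher and 1 lower (22.2% called), and of 15 B cell markers 4 were tested, with 2 higher (50% called). Both lists had 1 higher and 0 lower without rIAPP 2. In these 3 cell lists the shares were above that over all genes but rest on 2 or 3 called genes each. Itgax, an integrin shared by dendritic cells and macrophages, was the higher dendritic cell marker, with 13.95 ± 4.31 CPM in hIAPP and 4.19 ± 1.01 CPM in rIAPP.

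Lysosomal genes were higher in many members. Of 32 tested members of the lysosome and autophagy list, 15 were higher (12 without rIAPP 2), all passing members in that direction, at a median log2 fold change of 0.27. Ctsb, the protease cathepsin B, had 417, 481 and 371 CPM in hIAPP, against 244, 246 and 244 CPM in rIAPP and 283, 278 and 272 CPM in WT. Ctsd, cathepsin D, had 708, 909 and 695 CPM in hIAPP, against 465, 454 and 429 CPM in rIAPP. In both genes the groups did not overlap, at log2 fold changes of 0.79 ± 0.09 and 0.78 ± 0.11. Ctsz, cathepsin Z, had a log2 fold change of 0.72. Atp6v1a, the catalytic subunit of the proton pump, and Ctsl differed less, at 0.36 and 0.39. Macrophages are rich in lysosomes, and the macrophage markers moved with this list (19 of 24 higher, summed level 706 CPM or more in hIAPP against 252 CPM or less in rIAPP); their part in the lysosomal difference was not tested.

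The promoters of Ctsd and Atp6v1a are shown because they hold the palindrome TCACGTGA. It is the longest form searched here of the site that lysosomal genes share and that factors of the TFEB family bind. The windows are as above, with the palindrome in capitals. Ctsd lies at chr7:142387778-142388077 (minus strand) and Atp6v1a at chr16:44139210-44139509 (minus strand).
Ctsd: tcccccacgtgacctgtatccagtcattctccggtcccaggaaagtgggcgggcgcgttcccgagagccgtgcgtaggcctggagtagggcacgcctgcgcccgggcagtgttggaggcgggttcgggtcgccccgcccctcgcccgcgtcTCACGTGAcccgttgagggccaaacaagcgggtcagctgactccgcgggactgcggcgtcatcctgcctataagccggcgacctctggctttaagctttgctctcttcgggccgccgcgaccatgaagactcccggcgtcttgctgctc
Atp6v1a: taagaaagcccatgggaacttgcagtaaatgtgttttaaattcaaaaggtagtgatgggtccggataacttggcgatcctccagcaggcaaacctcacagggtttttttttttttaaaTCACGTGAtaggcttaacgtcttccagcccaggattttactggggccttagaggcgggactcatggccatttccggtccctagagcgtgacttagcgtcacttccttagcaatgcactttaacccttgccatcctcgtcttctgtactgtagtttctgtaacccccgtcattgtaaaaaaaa
TCACGTGA was in 6 of 29 windows of tested lysosomal members, against 0.974% of all windows, and in 3 of the 14 windows of members that were higher. The shorter overlapping motifs TCACGTG and CACGTG were in 9 and 11 of the 29, against 3.77% and 7.15% of all windows.

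**Figure D3:**
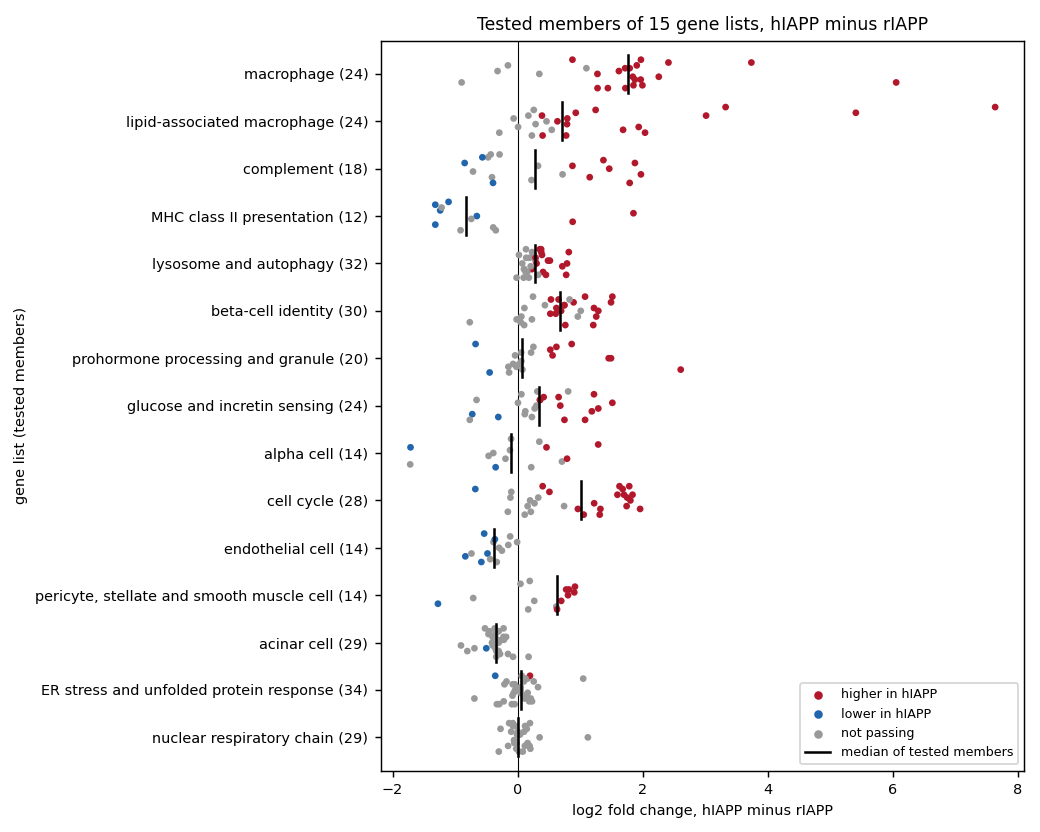
Log2 fold change of hIAPP over rIAPP (x axis) for each tested member of 15 gene lists (rows, with the number of tested members), in red where higher, blue where lower and grey where not passing, with the list's median as a black bar. The medians are 1.76 for macrophage markers, 0.68 for beta-cell identity and 1.01 for the cell cycle, and near 0 for the respiratory chain.

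Many beta-cell genes were higher in hIAPP than in rIAPP islets. Of 30 identity genes, all tested, 17 were higher (16 without rIAPP 2), all passing members in that direction, at a median log2 fold change of 0.68. The 13 others did not pass. Among them the transcription factors Nkx2-2, Pax6, Isl1 and Neurod1 had log2 fold changes of 0.02, 0.05, 0.11 and 0.11, and Mafa 0.96 (adjusted p = 0.14). Gpr119 was at -0.76 (adjusted p = 0.0618), with every hIAPP library below every rIAPP library. The insulin gene Ins1 had 57068, 49719.7 and 50169.8 CPM in hIAPP, against 29664, 22038 and 32651 CPM in rIAPP and 78181, 74959 and 74813 CPM in WT. Ins2 had 58210.3, 54780.1 and 51247 CPM in hIAPP, against 38286, 32073 and 37187 CPM in rIAPP and 91363, 95911 and 81829 CPM in WT. For both, the 3 groups did not overlap and hIAPP lay between rIAPP and WT, with log2 fold changes of hIAPP over rIAPP of 0.90 ± 0.13 (adjusted p = 0.000137) and 0.61 ± 0.10 (adjusted p = 0.00065). The transcription factor Pdx1 had 152, 148 and 110.1 CPM in hIAPP, against 79.0, 73.9 and 88.0 CPM in rIAPP (log2 fold change 0.76 ± 0.11). The ATP-sensitive potassium channel, which couples glucose metabolism to membrane voltage, differed in both of its subunits. Abcc8, the sulfonylurea receptor, had 1214, 1170.2 and 1100.3 CPM in hIAPP, against 516, 383 and 605 CPM in rIAPP and 1239, 899 and 1263 CPM in WT, and the pore Kcnj11 had 162, 150.3 and 155 CPM in hIAPP, against 97.8, 71.1 and 108 CPM in rIAPP and 183, 173 and 169 CPM in WT. Their log2 fold changes were 1.21 ± 0.15 and 0.75 ± 0.10. Ero1lb, an oxidase for insulin folding, had 1913, 1534 and 1572 CPM in hIAPP, against 680.2, 579 and 838 CPM in rIAPP and 3208, 2540.1 and 3101 CPM in WT. Slc2a2, the glucose transporter GLUT2, had 657, 462 and 476 CPM in hIAPP, against 235, 160.3 and 358 CPM in rIAPP and 1324, 1054 and 1427 CPM in WT, so that hIAPP lay between the others. It passed (adjusted p = 0.0144) except without hIAPP 1 or rIAPP 1 (adjusted p = 0.0643 and 0.0606). The summed level of the identity list was 114997 to 130737 CPM in hIAPP, 61480 to 79382 CPM in rIAPP and 177357 to 191315 CPM in WT, most of it insulin.

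Genes that process and pack prohormones were mixed. Of 20 members, all tested, 7 were higher and 2 lower (6 and 1 without rIAPP 2), at a median log2 fold change of 0.07. Vgf, a granule protein and neuropeptide precursor, had 38.0, 39.7 and 48.4 CPM in hIAPP, against 6.81, 5.97 and 7.51 CPM in rIAPP and 19.3, 15.7 and 23.6 CPM in WT. All 3 hIAPP libraries lay above all WT libraries, which lay above all rIAPP libraries (log2 fold change 2.61 ± 0.13, adjusted p = 8.84e-10). Pcsk1, the convertase that cuts proinsulin and proIAPP, had 479, 423 and 431 CPM in hIAPP, against 151, 148 and 173 CPM in rIAPP and 736, 531 and 719 CPM in WT, at a log2 fold change of 1.495 ± 0.12. Pcsk2, its partner, had a smaller log2 fold change of 0.52 ± 0.08. The granins Scg2 and Scg3 and the granule-docking protein Sytl4 had log2 fold changes of 0.87, 0.56 and 1.46. The 2 lower members were Iapp and Chga, a granin that had 10433 ± 729 CPM in hIAPP and 14218 ± 505 CPM in rIAPP (log2 fold change -0.45 ± 0.11, adjusted p = 0.0106, and adjusted p = 0.06 without hIAPP 2). Of 16 tested exocytosis genes, 1 was higher and 1 lower.

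Glucose and incretin sensing genes followed beta-cell identity, with which the list shares members. Of 24 tested, 11 were higher and 2 lower (10 and 2 without rIAPP 2), at a median log2 fold change of 0.34. G6pc2, the beta-cell glucose-6-phosphatase, had 2559, 2776 and 2096 CPM in hIAPP, against 1117, 776 and 1291 CPM in rIAPP and 3886, 4338 and 3162 CPM in WT. Its hIAPP libraries lay above every rIAPP library and below every WT library (log2 fold change 1.22 ± 0.19). The incretin receptor Glp1r, the fatty acid receptor Ffar1 and the adrenergic receptor Adra2a, which inhibits insulin release, had log2 fold changes of 1.29 ± 0.21, 1.52 ± 0.23 and 1.19 ± 0.15. Ion channel genes split, with 4 of 24 higher and 6 lower (4 and 4 without rIAPP 2), or 16.7% higher against 7.61% of all genes and 25.0% lower against 5.34%. Beside Abcc8 and Kcnj11, the sodium channel Scn9a had 54.1 ± 4.18 CPM in hIAPP and 94.0 ± 8.07 CPM in rIAPP, and the sodium-calcium exchanger Slc8a1 had 181 ± 6.39 CPM in hIAPP and 265 ± 18.8 CPM in rIAPP (SD, n = 3 each). Both were lower in hIAPP, at log2 fold changes of -0.80 ± 0.08 and -0.55 ± 0.08.

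**Figure D4:**
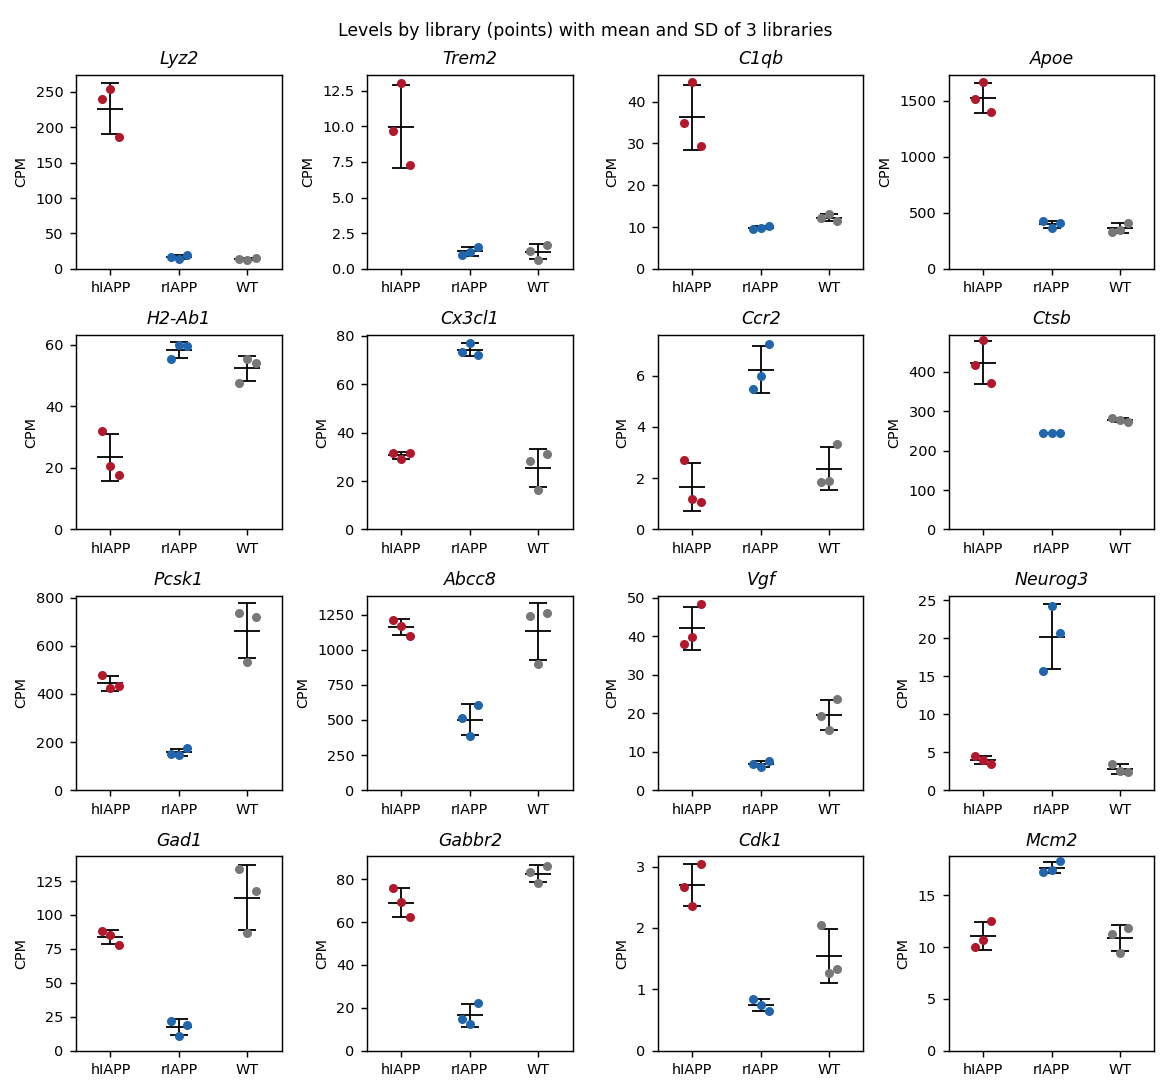
CPM of 16 genes (y axes, each from 0) in hIAPP, rIAPP and WT islets, with points for libraries and bars for the mean and SD of 3 libraries. Lyz2, Trem2, C1qb, Apoe and Ctsb stand high in hIAPP alone, and Cx3cl1, Ccr2, Neurog3 and Mcm2 stand high in rIAPP alone. Abcc8, Gad1 and Gabbr2 stand low in rIAPP alone, and the hIAPP libraries of Pcsk1 lie between those of rIAPP and WT.

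Genes of GABA and glutamate signalling, which beta cells share with neurons, held large differences in both directions. Of 14 tested, 3 were higher and 3 lower (3 and 2 without rIAPP 2). Gad1, which makes GABA, had 88.2, 85.3 and 77.8 CPM in hIAPP, against 22.1, 10.8 and 19.3 CPM in rIAPP and 134, 86.9 and 118 CPM in WT. Gabbr2, a subunit of the metabotropic GABA receptor, had 75.7, 69.4 and 62.1 CPM in hIAPP, against 14.8, 12.3 and 22.4 CPM in rIAPP and 83.5, 78.1 and 86.2 CPM in WT. Both were low in rIAPP alone, at log2 fold changes of 2.21 ± 0.25 and 2.03 ± 0.16. Grin2c, a glutamate receptor subunit, had the opposite order with 10.96, 8.92 and 9.35 CPM in hIAPP, against 31.0, 35.9 and 32.4 CPM in rIAPP and 6.26, 5.04 and 8.76 CPM in WT. The neuronal adhesion and guidance list had 9 of 37 tested members lower and 3 higher (7 and 3 without rIAPP 2), or 24.3% lower against 5.34% of all genes and 8.11% higher against 7.61%. The higher share was thus near that over all genes. Beside the genes above, Sema3e, a vascular guidance cue, and Thsd7a were lower, at log2 fold changes of -1.35 ± 0.14 and -1.43 ± 0.18.

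Progenitor and dedifferentiation genes were split between the groups. Of 18 members 14 were tested, and 4 were lower and 1 higher, with and without rIAPP 2. Neurog3, the transcription factor that starts endocrine fate in the embryo, had 4.50, 3.91 and 3.47 CPM in hIAPP, against 15.7, 24.2 and 20.7 CPM in rIAPP and 3.49, 2.52 and 2.33 CPM in WT. Its hIAPP libraries overlapped with WT and lay below every rIAPP library (log2 fold change -2.33 ± 0.19, adjusted p = 4.06e-07). The tetraspanin Cd81, the serotonergic factor Fev and Serpina7 were also lower, at log2 fold changes of -0.80, -1.38 and -1.41. Aldh1a3, an aldehyde dehydrogenase that marks failing beta cells, was the member that was higher, with 65.4, 87.7 and 122 CPM in hIAPP, against 26.3, 52.98 and 33.8 CPM in rIAPP and 19.2, 4.41 and 9.09 CPM in WT. Its hIAPP libraries lay above all others but spread widely (log2 fold change 1.32 ± 0.38, adjusted p = 0.0426). It did not pass without hIAPP 2, hIAPP 3, rIAPP 1 or rIAPP 3, with adjusted p from 0.0908 to 0.158. The list of genes that normal beta cells keep low had 0 calls among 18 in edgeR and in DESeq2, with 2 higher at an unadjusted p below 0.05 and 2 calls in voom.

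Other endocrine hormones did not pass. Gcg, glucagon of alpha cells, had 23482 ± 386 CPM in hIAPP and 26846 ± 3115 CPM in rIAPP (adjusted p = 0.237). Sst, somatostatin of delta cells, had 1973 ± 248 CPM in hIAPP and 1838 ± 79.9 CPM in rIAPP (adjusted p = 0.604). Ppy, pancreatic polypeptide, had 2264 ± 789.9 CPM in hIAPP and 2074 ± 391 CPM in rIAPP (SD, n = 3 each, adjusted p = 0.866). Of 14 alpha-cell markers, 3 were higher and 2 lower (2 and 1 without rIAPP 2, and 1 lower without hIAPP 1 or hIAPP 2). Gc, the vitamin D binding protein, had 146, 177 and 189 CPM in hIAPP, against 569, 604 and 506 CPM in rIAPP and 96.7, 105 and 78.2 CPM in WT, and Slc7a2, an amino acid transporter also found in beta cells, had 428, 352 and 289.6 CPM in hIAPP, against 150.4, 115 and 170.1 CPM in rIAPP and 555, 602 and 569 CPM in WT. Gc was thus lower and Slc7a2 higher, at log2 fold changes of -1.71 ± 0.12 and 1.29 ± 0.17. Of the 9 tested delta, PP and epsilon markers, 0 passed in edgeR, against 2 at an unadjusted p below 0.05, 2 calls in DESeq2 and 2 in voom.

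Mitotic genes were higher in hIAPP at low levels. Of 28 cell cycle genes, all tested, 17 were higher and 1 lower (13 and 1 without rIAPP 2, and 8 higher without rIAPP 1), at a median log2 fold change of 1.01. Cdk1, the kinase that drives entry into mitosis, had 2.67, 2.36 and 3.04 CPM in hIAPP, against 0.851, 0.746 and 0.644 CPM in rIAPP and 2.06, 1.26 and 1.33 CPM in WT. Mki67, the proliferation marker Ki-67, had 14.3, 10.2 and 12.4 CPM in hIAPP, against 5.38, 4.90 and 5.35 CPM in rIAPP and 9.44, 15.7 and 9.42 CPM in WT. For both, rIAPP was the low group and did not overlap with hIAPP (log2 fold changes 1.84 ± 0.30 and 1.23 ± 0.24). Top2a, the topoisomerase of dividing cells, the motor protein Kif11 and the ubiquitin carrier Ube2c had log2 fold changes of 1.63 ± 0.31, 1.33 ± 0.26 and 1.96 ± 0.39. Mcm2, part of the replication licensing helicase, was the member that was lower, with 9.98, 10.7 and 12.6 CPM in hIAPP, against 17.2, 17.5 and 18.3 CPM in rIAPP (log2 fold change -0.68 ± 0.12). Dividing cells of any type add to these levels, and the cell type was not resolved in bulk RNA.

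The promoters of Cdk1 and Kif11 are shown because both hold the cell cycle homology element TTTGAA and the box CCAAT, a pairing known from genes of late cell cycle stages. The windows are as above, with the element in capitals as TTTGAA or, on the other strand, TTCAAA, and the box in capitals as CCAAT or, on the other strand, ATTGG. Cdk1 lies at chr10:69352863-69353162 (minus strand) and Kif11 at chr19:37376132-37376431 (plus strand).
Cdk1: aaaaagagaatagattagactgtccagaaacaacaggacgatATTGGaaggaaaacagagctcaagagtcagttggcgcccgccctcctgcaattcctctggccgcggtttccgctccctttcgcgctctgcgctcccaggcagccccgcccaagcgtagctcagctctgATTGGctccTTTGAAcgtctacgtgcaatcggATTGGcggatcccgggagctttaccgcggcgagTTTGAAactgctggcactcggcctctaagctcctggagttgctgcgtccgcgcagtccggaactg
Kif11: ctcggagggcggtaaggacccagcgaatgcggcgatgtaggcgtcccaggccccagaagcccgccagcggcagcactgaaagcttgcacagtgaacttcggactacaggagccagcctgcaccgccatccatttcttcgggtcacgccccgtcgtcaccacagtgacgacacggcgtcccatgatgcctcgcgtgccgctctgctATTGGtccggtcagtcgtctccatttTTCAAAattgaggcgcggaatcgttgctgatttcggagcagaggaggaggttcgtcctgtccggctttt
TTTGAA was in 11 of 23 windows of the tested cell cycle members, against 17.9% of all windows, and CCAAT in 18 of 23, against 37.4%. Of the 14 windows of members that were higher, TTTGAA was in 10 and CCAAT in 12. The variants TTTGAATT and TTTCGAA were in 3 and 1 of the 23, against 1.29% and 0.746% of all windows. The cyclic AMP elements TGACGTCA and TGACGTA were in 1 and 0 of the 23, against 1.79% and 1.27%. In all, 11 motifs were searched over 6 lists. TGACGTCA was in 3 of 22 windows of tested prohormone members and in 2 of 25 of beta-cell identity. It was in 0 of 20 macrophage, 1 of 29 lysosomal and 0 of 24 lipid-associated macrophage windows.

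Genes of the vessel wall moved in opposite directions. Of 14 pericyte, stellate and smooth muscle markers tested, 7 were higher and 1 lower (5 and 1 without rIAPP 2), at a median log2 fold change of 0.63. Notch3, a receptor of mural cells, had 83.4, 75.5 and 92.9 CPM in hIAPP, against 46.8, 38.2 and 47.4 CPM in rIAPP, with every hIAPP library the higher (log2 fold change 0.92 ± 0.14). Rgs5 and Pdgfrb, markers of pericytes, had log2 fold changes of 0.78 ± 0.15 and 0.63 ± 0.14. Kcnj8, a potassium channel of pericytes, was the lower member, with 5.35, 4.35 and 4.49 CPM in hIAPP, against 11.5, 12.3 and 10.7 CPM in rIAPP and 1.402, 1.26 and 1.44 CPM in WT. Of 14 endothelial markers, 5 were lower (4 without rIAPP 2, and 2 without hIAPP 2 or rIAPP 1), all passing members in that direction, at a median log2 fold change of -0.37. Eng, a co-receptor for TGF-beta ligands, had 41.7 ± 4.86 CPM in hIAPP and 60.4 ± 0.877 CPM in rIAPP, and Tek, the angiopoietin receptor, had 27.6 ± 1.96 CPM in hIAPP and 41.2 ± 1.64 CPM in rIAPP (SD, n = 3 each). Their log2 fold changes were -0.53 ± 0.11 and -0.58 ± 0.14, and Tek did not pass without hIAPP 2 or rIAPP 1 (adjusted p = 0.055 and 0.051). The summed endothelial level was 1025 to 1103 CPM in hIAPP and 1309 to 1358 CPM in rIAPP, and the summed pericyte level 592 to 712 CPM in hIAPP and 413 to 466 CPM in rIAPP.

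Of 38 extracellular matrix genes, all tested, 6 were higher (15.8%, against 7.61% of all genes) and 2 lower (5.26%, against 5.34%), or 5 and 2 without rIAPP 2, at a median log2 fold change of 0.19. Fn1, fibronectin, had 23.6, 23.7 and 19.9 CPM in hIAPP, against 4.39, 5.01 and 6.41 CPM in rIAPP and 2.68, 1.89 and 4.55 CPM in WT. Tnc, the repair matrix protein tenascin C, had 6.22, 8.51 and 11.8 CPM in hIAPP, against 1.43, 1.28 and 1.48 CPM in rIAPP. Fn1 was high in every hIAPP library and Tnc spread more widely within the group (log2 fold changes 2.08 ± 0.23 and 2.64 ± 0.55). Vcan, a large proteoglycan, was lower at a log2 fold change of -0.87 ± 0.15. Heparan sulfate proteoglycans, which are found in islet amyloid deposits, had 4 of 19 members higher and 1 lower, with and without rIAPP 2. The syndecan Sdc3 had 73.9, 69.4 and 75.9 CPM in hIAPP, against 35.9, 33.5 and 40.9 CPM in rIAPP, and Sdc2 had 47.4, 47.8 and 48.6 CPM in hIAPP, against 86.2, 93.0 and 80.4 CPM in rIAPP. The 2 syndecans thus differed in opposite directions (log2 fold changes 0.98 ± 0.09 and -0.85 ± 0.08). Hpse, which cleaves heparan sulfate, was higher at 1.64 ± 0.36. Of 22 tested TGF-beta and activin genes 4 were higher, among them the receptors Tgfbr1, Tgfbr2 and Acvr1c, with log2 fold changes of 0.66, 0.86 and 1.23.

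The share called was 3.45% for acinar and 26.7% for duct genes, against 12.9% of all genes. Of 29 acinar genes, all tested, 1 was lower, Bhlha15, a regulator of secretory cells, with 44.3 ± 9.96 CPM in hIAPP and 62.8 ± 4.91 CPM in rIAPP, and it did not pass without rIAPP 2 (adjusted p = 0.149), hIAPP 1, rIAPP 1 or rIAPP 3 (adjusted p = 0.155, 0.0702 and 0.0822). The summed acinar level was 76934 to 167301 CPM in hIAPP and 121256 to 170250 CPM in rIAPP, and no acinar marker was at 0 in all 6 libraries. Of 15 duct markers 3 were lower and 1 higher (2 and 1 without rIAPP 2), and Cldn4, a tight junction protein, had 43.1, 46.7 and 45.5 CPM in hIAPP, against 114, 102 and 111 CPM in rIAPP and 37.8, 23.3 and 24.5 CPM in WT. Msln, a marker of the mesothelium that covers organs, had 24.8, 39.3 and 24.9 CPM in hIAPP, against 292, 214 and 236 CPM in rIAPP and 34.5, 23.3 and 21.2 CPM in WT. Its rIAPP libraries alone were high (log2 fold change -3.06 ± 0.22, adjusted p = 1.73e-06), whereas Lyve1, a marker of lymphatic endothelium and of some macrophages, was higher in hIAPP at 1.26 ± 0.22. Of 12 Schwann and glial markers, 1 was higher and 1 lower (0 and 1 without rIAPP 2), of 18 circadian genes 1 was higher (0 without rIAPP 2), and of 5 tested lymphatic and mesothelial genes Msln and Lyve1 were the passing members (40% called).

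Among stress and housekeeping lists in the main fit, antioxidant genes stood above the 12.9% called over all genes, p53 genes near it and the others below it. Of 34 endoplasmic reticulum stress genes, all tested, 1 was higher and 1 lower (5.88% called), and neither passed without rIAPP 2 (adjusted p = 0.0604 and 0.154) or in most fits without another single library. Those members were Pdia6, a folding enzyme with 395 ± 13.0 CPM in hIAPP and 345 ± 8.96 CPM in rIAPP, and Eif2ak3, the stress sensor PERK with 104 ± 17.5 CPM in hIAPP and 134 ± 5.39 CPM in rIAPP. Calls among the p53 and antioxidant genes also changed with most single libraries. Of 22 p53 and cell death genes 2 were higher and 1 lower (13.6% called). Of 19 antioxidant genes 3 were higher and 1 lower (21.1% called). Both lists had 1 higher and 0 lower without rIAPP 2, shares below the 8.15% called over all genes in that fit. In edgeR 0 passed among 16 heat shock genes, 20 proteasome genes, 22 glycolysis genes, 29 respiratory chain genes and 34 ribosomal protein genes. At an unadjusted p below 0.05 these lists held 1, 1, 4, 3 and 4 genes in that order. DESeq2 called 0, 1, 1, 0 and 1 of them and voom called 1, 1, 3, 0 and 4. Their medians lay between -0.04 and 0.14 on the log2 scale. The immediate-early genes, which rise with handling of tissue, had 1 of 20 higher and 1 lower (0 and 1 without rIAPP 2).

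**Figure D5:**
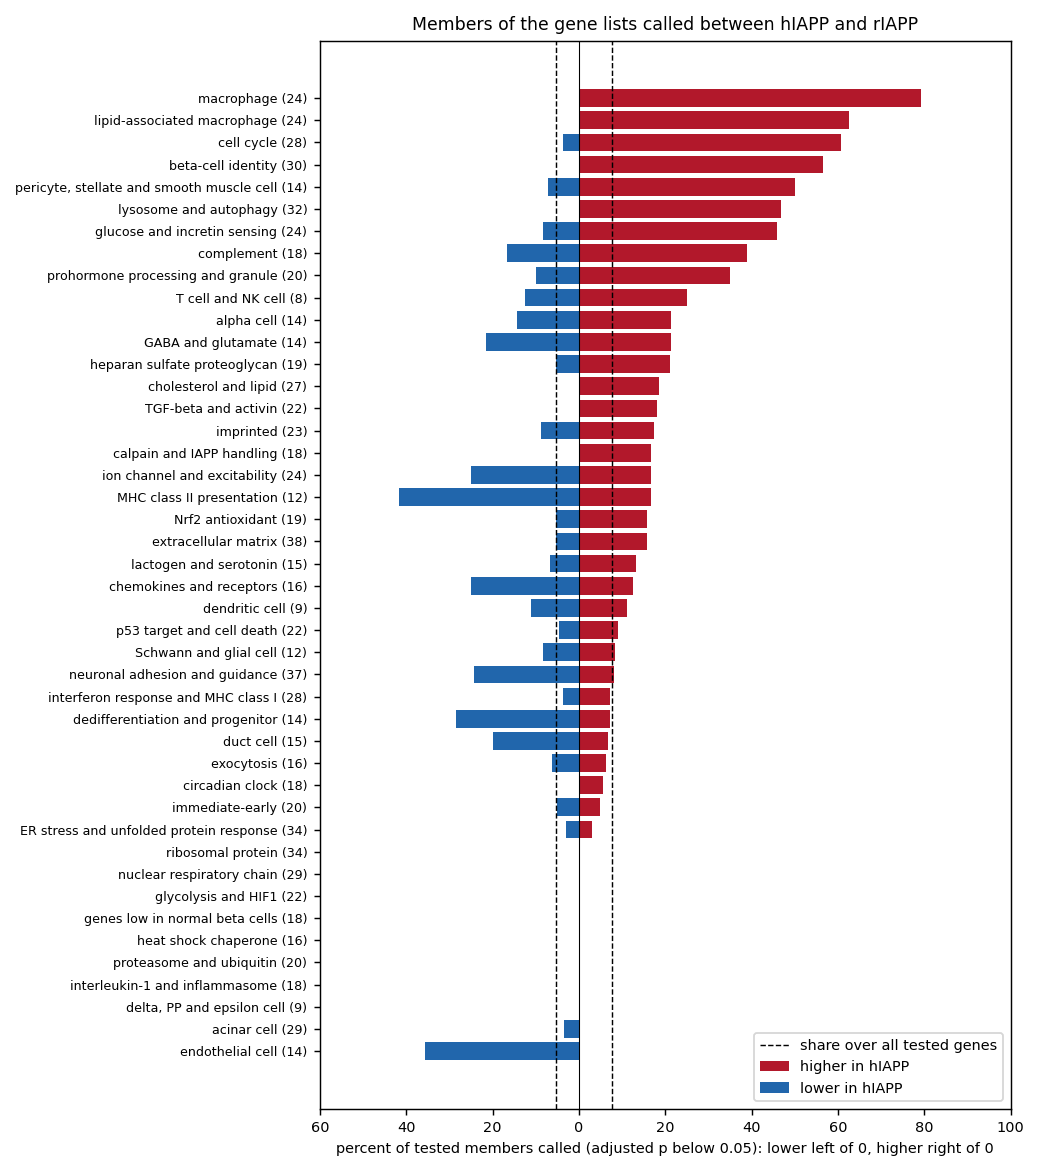
Percent of tested members higher (red, right of 0) and lower (blue, left of 0) in hIAPP for each list with at least 8 tested members (count in brackets), with dashed lines at the shares over all genes, 7.61% higher and 5.34% lower. Macrophage markers reach 79.2%, and lists such as the respiratory chain and ribosomal proteins have no bar.

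Smaller sets held single clear members. Of 27 cholesterol and lipid genes 5 were higher (2 without rIAPP 2, and 2 to 3 without hIAPP 1, hIAPP 2 or rIAPP 1), all passing members in that direction. Elovl6, which lengthens fatty acids, had 60.8, 60.03 and 53.5 CPM in hIAPP, against 34.2, 32.5 and 36.3 CPM in rIAPP (log2 fold change 0.75 ± 0.07). Of 23 tested imprinted genes 4 were higher and 2 lower, with and without rIAPP 2. Nnat, a membrane protein that supports insulin processing, had 62.3, 54.8 and 44.4 CPM in hIAPP, against 24.9, 23.1 and 28.6 CPM in rIAPP and 184, 166 and 169 CPM in WT. It was below WT in both groups and lowest in rIAPP (log2 fold change 1.06 ± 0.14, adjusted p = 9.34e-05). The growth inhibitor Grb10 and the non-coding RNA H19 were lower, at -0.70 ± 0.13 and -3.17 ± 0.60. H19 was near the floor, and the stricter filter, at least 1 CPM in 3 libraries, left it untested. Among 18 tested calpain and IAPP handling genes 3 were higher, with and without rIAPP 2, of which Ece1, a peptidase, had 791 ± 62.6 CPM in hIAPP and 544 ± 52.1 CPM in rIAPP, and the calpains Capn9 and Capn3 lay below 3 CPM in every hIAPP and rIAPP library, with Capn3 not passing without hIAPP 2 or rIAPP 1 (adjusted p = 0.0735 and 0.069). Ide, the insulin-degrading enzyme that also cuts IAPP, had 69.2 ± 6.58 CPM in hIAPP and 78.4 ± 4.96 CPM in rIAPP and did not pass (adjusted p = 0.173). Among 15 tested lactogen and serotonin genes 2 were higher and 1 lower, with Htr2b, a serotonin receptor, at 2.08 ± 0.139 CPM in hIAPP and 0.533 ± 0.176 CPM in rIAPP (log2 fold change 1.97 ± 0.35).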

How the data were processed

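Total RNA of islets was sequenced in 15 libraries, made per the labels' protocols with Ribo-Zero and NuGEN Ovation kits. The deposited counts are whole reads per gene symbol, made by the authors with STAR and HTSeq on GRCm38, which is also called mm10, per the submitters' processing notes. No annotation, tool version or strand setting is given in the sources used here, so overlapping, antisense and near-identical genes are uncertain. The deposited FPKM, the authors' counts per length and library total, served only as an alternative. All 15 columns of each table were matched to libraries by title, with 0 unused.

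The main test was the quasi-likelihood method of edgeR (version 4.0.16, under R 4.3.3). Dispersions were robust, and the model had a coefficient for each group, fitted to all 15 libraries. TMM scaling was computed after leaving out Rn45s, Lars2 and Mir6236, and genes were filtered on low counts by group, so that a gene present in 1 group only is retained. The biological coefficient of variation was 0.128. CPM are counts scaled by that library size. Adjusted p is Benjamini-Hochberg over the 15595 tested genes, and SE follows from the log2 fold change and its F value. The counts of a gene present in 1 group have intervals that cover counting error only. Total counts were 28287011 to 40191501 per library, and WT 2, WT 3 and rIAPP 2 had the fewest outside the 3 ribosomal entries, which limits low genes there. The scripts were tested on simulated data.

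The rule for named genes took Iapp and Cast, the hormone genes Gcg, Ins1, Ins2, Ppy and Sst, the 15 largest rises and 15 largest falls that were called, averaged at least 1 CPM and did not overlap, without predicted genes, pseudogenes and receptor segments, and up to 6 members of smallest p per list. Emr1, Chga, Slc2a2, C5ar1, Cd3d, Cd3e and Cd3g fall outside that rule and were chosen after their values were seen. The beta-cell identity and macrophage members named as not passing were also chosen after their values were seen. Members and gene lists were chosen with earlier results of these data known. Alternatives were DESeq2 1.42.0, voom in limma 3.58.1, other scalings and filters, subsets of libraries and limma on log2 FPKM. Promoter windows and their build, GRCm38.p6, are from RefSeq, and gene coordinates from GENCODE on GRCm38. Some genes that the rule takes are not reported here. Human transgene reads were not analysed here.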

Additional observations from a re-analysis of the deposited data

Results flagged for a closer look

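The hIAPP_hCAST libraries, which also carry human IAPP and enter no comparison above, gave a further reading of the largest rises. In 8 of these genes that averaged at least 1 CPM in hIAPP_hCAST, every hIAPP_hCAST library lay above every hCAST and WT library. Atp6v0d2 had the same order at a mean below 1 CPM. The rest of the largest rises, Angptl7, Mcoln3, Kcnj12, Slc14a2, Map3k19 and Areg, did not have this order. Areg had 0.903, 0.758 and 0.361 CPM in hIAPP_hCAST, against 0.433, 0.795 and 0.746 CPM in hCAST. Sema5a averaged 824 CPM in hIAPP_hCAST (762 to 887), against 14.6 to 24.6 CPM in hCAST and WT. Its neighbour Snhg18 averaged 146 CPM (126 to 162) in hIAPP_hCAST, against 6.98 to 10.7 CPM in those controls. Both ranges overlapped with those of hIAPP. Lyz2 averaged 95 CPM (61 to 143) in hIAPP_hCAST, against 12 to 18.2 CPM in hCAST and WT. Gpnmb averaged 5.51 CPM (2.5 to 7.83) in hIAPP_hCAST, against 0.498 to 1.89 CPM in hCAST and WT. Trem2 averaged 6.04 CPM (3.61 to 9.77) in hIAPP_hCAST, against 0.63 to 1.66 CPM in hCAST and WT. In hIAPP_hCAST, Cd84 averaged 5.09 CPM (4.58 to 6.05), Fcrls 1.89 CPM (1.37 to 2.85) and Siglec1 1.15 CPM (1.04 to 1.23). In hCAST and WT, Cd84 lay at 0.722 to 1.63 CPM, Fcrls at 0 to 0.359 CPM and Siglec1 at 0 to 0.462 CPM. The macrophage genes were present at lower means than in hIAPP, a difference that was not tested here. The hIAPP and hIAPP_hCAST libraries have title numbers in a shared range, so a common line or colony cannot be told apart from human IAPP.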

How the results depend on the processing

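The comparison gave 2018 calls, 1186 higher and 832 lower, and no call changed sign under the alternatives on counts. Leaving out each of the 6 hIAPP and rIAPP libraries in turn gave 1286 to 1725 calls, 744 to 1067 higher and 542 to 662 lower. Without the 3 libraries rich in ribosomal entries, 786 genes were higher. Voom gave 3482 calls, 1994 higher and 1488 lower. The fit of the 6 hIAPP and rIAPP libraries alone called 1300 genes lower. On log2 FPKM there were 393 calls with a pseudocount of 1 (308 higher and 85 lower), 114 with 0.1 (74 higher and 40 lower) and 126 over all entries (92 higher and 34 lower). The median of all tested genes lay at 0.40, 0.53 and 0.18 on the log2 scale there, 286, 311 and 286 of the 2018 calls had the other sign, and 325, 105 and 105 held. Of the 125 named calls, 55, 36 and 33 held in these fits, 67, 84 and 89 no longer passed, and 3, 5 and 3 had the other sign. Against that shift, Gcg was at 0.37 in each FPKM fit, Chga at 0.11 in each, Ide at 0.33 and 0.37, Eif2ak3 at 0.17 and 0.18, and Bhlha15 at 0.014 and 0.025, with Slc8a1 at 0.0022 and Eng at 0.013 for the pseudocount of 0.1. Sst was at -0.0048 without hIAPP 3, and Ppy ranged from -0.14 without hIAPP 2 to 0.36 without hIAPP 1, with -0.0067 without rIAPP 1, and neither gene passed in these fits. The acinar share of hIAPP minus rIAPP turned to 0.624 percentage points with the ribosomal entries kept. DESeq2 gave 2171 calls, RLE scaling 2005, the ribosomal entries kept 2009, scaling without acinar and insulin genes 2020, no filter 1876, a stricter filter 1980, dispersions that were not robust 2022 and the acinar level as a covariate 2662. FPKM are divided by the library total, of which the ribosomal entries were 67.7% in rIAPP 2. That share was 1.99% and 11.8% in the other rIAPP libraries and 0.351% to 7.63% in hIAPP. For the changes under voom, the 6-library fit and FPKM the cause was not tested. No paired analysis was possible because the title numbers are not shared between hIAPP and rIAPP and the numbers 1 to 3 follow accession order.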

Other observations

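The called genes were spread over the chromosomes. Of the tested genes with a position, 16.5% were called on chromosome 15, which holds Sema5a and Snhg18, and 9.05% on chromosome 17, with the others between these values. On chromosome 15, 52 of 588 tested genes were higher and 45 lower in hIAPP.

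Among hIAPP, rIAPP and WT, the macrophage genes of the largest rises were high in hIAPP, and many other named differences set rIAPP apart from both hIAPP and WT. All 15 of the largest falls, and Angptl7, Mcoln3, Kcnj12 and Slc14a2 among the rises, had every WT library on the hIAPP side of the rIAPP libraries and nearer to the hIAPP mean than to the rIAPP mean. Where WT lay beyond every hIAPP library, as in Mcoln3, Kcnj12 and Slc14a2, this nearness follows from the order and is no measure of likeness. Slc14a2 had 37.9, 25.8 and 72.7 CPM in WT, against 11.8, 13.2 and 11.2 CPM in hIAPP. WT was also above every rIAPP library for Sema5a, Areg and Map3k19, but in Sema5a and Map3k19 every WT library, and in Areg WT 1 and WT 3, lay nearer to the rIAPP mean. The WT levels rest in part on WT 2 and WT 3, the libraries rich in ribosomal entries. WT title numbers also lie apart from those of hIAPP and rIAPP, so colony cannot be told apart from transgene in these patterns.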
